A study of Homo sapiens with 3 samples.

Results

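The heat shock and chaperone genes described here are HSPA1A, HSPA1B, HSPA8, HSP90AA1, HSP90AB1, HSPH1, DNAJB1, HSPD1 and HSPE1. Called regions were assigned to them by position alone: a region belonged to the set when its centre lay in 1 of 7 windows of the hg19 genome, which together span 215 kb. HSPA1A and HSPA1B share a window, as do HSPD1 and HSPE1. This gave 44 of the 59983 regions in the study: 20 of 24782 Pol II regions with TBBz, 15 of 21819 Pol II regions with DMSO, and 9 of 13382 CK2α regions.

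The regions come from ChIP-seq (sequencing of the DNA that an antibody pulls down with its target protein) in LNCaP cells, a prostate carcinoma line that responds to androgen. In the TBBz group the cells received 25 μM TBBz, an inhibitor of the protein kinase CK2, for 2.5 hours, with 100 nM dihydrotestosterone (DHT, an androgen) over the last 1.5 hours, and RNA polymerase II (Pol II) was precipitated. The DMSO group had the vehicle, labelled as 25 μM DMSO, in place of TBBz, with the other labels the same. In the CK2α group a catalytic subunit of CK2 was precipitated from cells given 100 nM DHT without inhibitor or DMSO on the label; its DHT time is 2.5 hours in one label and 90 min in another. All cells were of passages 40 to 45 and spent 3 days in 5% charcoal-stripped serum, so no group was without DHT. There was 1 library per group, so the spread between repeat libraries is unknown for every value below. Both Pol II libraries carry a source name that mentions TBBz and are told apart by their treatment labels.

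Heat shock proteins are chaperones that fold, hold or refold other proteins. The HSP70 proteins work with J-domain partners such as DNAJB1 and with the nucleotide exchange factor HSPH1, the HSP90 proteins keep clients such as the androgen receptor ready to bind hormone, and HSPD1 with HSPE1 forms the mitochondrial chaperonin. Many of these genes are driven by the factor HSF1, which binds inverted repeats of the letters GAA known as heat shock elements, and at the HSP70 genes Pol II is known to wait close to the start before it is released into the gene.

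The promoters below were picked because they hold heat shock element letters and because they show how alike the HSPA1A and HSPA1B copies are. Not all promoters of these genes hold such letters. Each is the stretch of 250 bases before a gene start in RefSeq, on build GRCh38.p14 and not on the hg19 build of the regions, and positions were not carried over between the builds. Capitals mark GAANNTTC or TTCNNGAA, which can overlap each other and read the same on both strands. They also mark TATAAA, a form of the TATA box, searched on both strands. The stretches are HSPA1A at chr6:31815293-31815542 (plus strand), HSPA1B at chr6:31827488-31827737 (plus), HSPA8 at chr11:123062137-123062386 (minus), 1 of the 2 HSP90AA1 starts at chr14:102087045-102087294 (minus), and 1 of the 3 DNAJB1 starts at chr19:14518398-14518647 (minus).
HSPA1A: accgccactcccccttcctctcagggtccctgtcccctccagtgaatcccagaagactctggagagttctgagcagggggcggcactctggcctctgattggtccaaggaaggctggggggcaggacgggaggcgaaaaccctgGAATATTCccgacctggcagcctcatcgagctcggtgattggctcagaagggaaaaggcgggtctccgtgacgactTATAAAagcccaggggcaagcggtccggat
HSPA1B: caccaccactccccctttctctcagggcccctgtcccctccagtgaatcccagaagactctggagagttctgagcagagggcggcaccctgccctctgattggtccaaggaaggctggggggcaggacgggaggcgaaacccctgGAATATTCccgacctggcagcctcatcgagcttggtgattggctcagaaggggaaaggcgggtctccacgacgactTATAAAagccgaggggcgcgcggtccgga
HSPA8: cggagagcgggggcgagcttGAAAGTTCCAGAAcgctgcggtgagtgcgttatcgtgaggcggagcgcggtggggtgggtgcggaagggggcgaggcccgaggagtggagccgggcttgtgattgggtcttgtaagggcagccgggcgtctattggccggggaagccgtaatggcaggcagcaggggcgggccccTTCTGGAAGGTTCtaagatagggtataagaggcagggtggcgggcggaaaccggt
HSP90AA1: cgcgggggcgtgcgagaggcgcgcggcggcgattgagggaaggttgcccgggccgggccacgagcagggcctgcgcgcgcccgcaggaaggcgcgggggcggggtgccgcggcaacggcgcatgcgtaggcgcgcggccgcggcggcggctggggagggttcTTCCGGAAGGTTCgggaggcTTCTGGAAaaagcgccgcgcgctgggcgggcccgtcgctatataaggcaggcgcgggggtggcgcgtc
DNAJB1: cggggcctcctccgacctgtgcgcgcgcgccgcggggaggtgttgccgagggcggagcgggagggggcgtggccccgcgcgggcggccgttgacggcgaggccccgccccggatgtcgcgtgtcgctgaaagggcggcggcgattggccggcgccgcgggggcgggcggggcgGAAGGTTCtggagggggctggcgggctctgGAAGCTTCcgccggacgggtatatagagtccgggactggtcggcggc

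All 9 genes had at least 1 promoter in the table, 15 in all. Heat shock element letters, in either arrangement, stood in 7 of these 15 promoters, against 11.6% of all 35116 promoters in the table. At least 1 promoter of 7 of the 9 genes held them, a share per gene that was not computed over the table. The exceptions were HSPH1 and HSPE1, in whose 250 bases these letters were not found. The exact letters TATAAA stood in 2 of the 15 promoters, those of HSPA1A and HSPA1B, against 10.7% of all promoters. Other forms of the TATA box were not searched for, so the lack of one in the remaining promoters is not shown. A match of letters is a description and not a shown binding site. The HSPA1A and HSPA1B promoters were identical at 235 of 251 aligned columns (93.6%), with 49 bases as the longest identical run.

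Pol II was called in every window in both treatments. The TBBz list held between 2 and 4 regions per window and the DMSO list between 1 and 3. TBBz had more regions than DMSO in 4 windows (HSPA1A and HSPA1B, HSPA8, HSP90AB1, HSPH1) and the same number in 3, and in no window fewer. The whole TBBz list was also longer, with 24782 regions against 21819 with DMSO. How often windows elsewhere held more TBBz regions was not counted over the genome. Equal numbers need not be the same regions: at HSP90AA1 and at HSPD1 and HSPE1, each list held 1 region that the other did not overlap. CK2α was called in 5 of the 7 windows and was not called at HSPA8 or at HSPD1 and HSPE1. The share of gene windows with a Pol II or CK2α region over the genome was not computed.

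**Figure D1:**
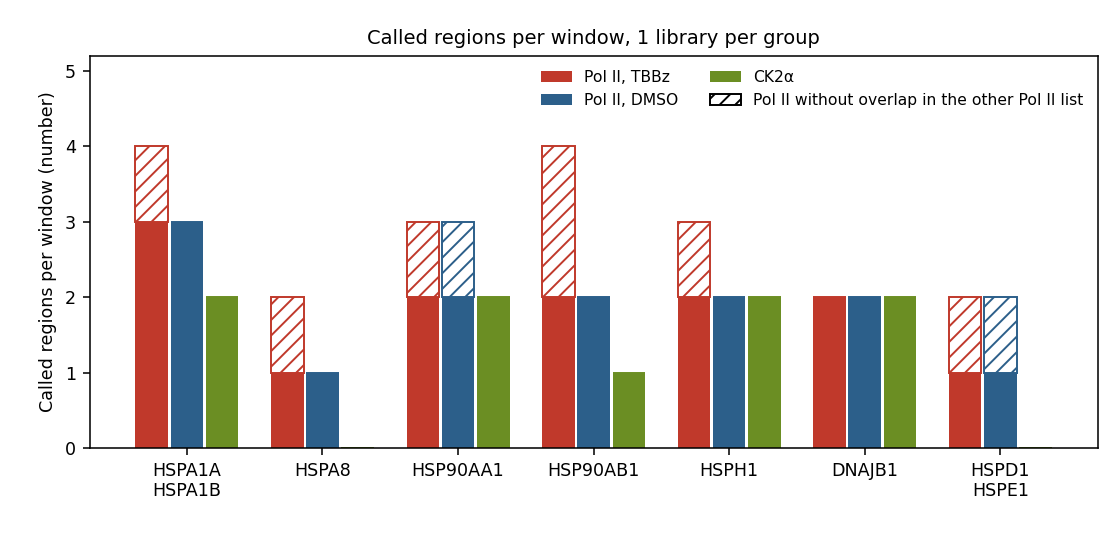
Number of called regions (vertical axis) in each of the 7 windows (horizontal axis), with bars for Pol II with TBBz, Pol II with DMSO and CK2α, 1 library each. The hatched part counts Pol II regions without an overlapping region in the other Pol II list, 7 with TBBz and 2 with DMSO.

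Prostate genes were checked as markers of the cells. KLK3 and TMPRSS2, which are expressed in luminal prostate cells, each had at least 1 Pol II region in both treatments. The window of ALB (liver) had no region in any list, and PTPRC (leukocytes) had 1 TBBz region at place 20758 of 24782. The libraries held 22345614 tags with TBBz, 15466579 with DMSO and 19021404 for CK2α, with a mean of 114, 48.1 and 23.5 tags per called region. The authors' caller dropped candidates less than 4-fold over their local 10 kb: 35.3% of candidates with TBBz, 53.7% with DMSO and 76.2% for CK2α. A site with signal around it can therefore be missing from a list. How far the difference in depth and in removed candidates bears on the results below was not tested.

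The sites of Pol II at the chaperone genes were largely the same in both treatments. Of the TBBz regions in the windows, 13 of 20 overlapped a DMSO region by at least 1 bp, which is 65.0% (exact 95% binomial interval 40.8 to 84.6%), against 65.0% of the whole TBBz list. Of the DMSO regions, 13 of 15 overlapped a TBBz region, which is 86.7% (59.5 to 98.3%), against 73.8% of the whole DMSO list. Both shares have intervals that include the share of the whole list, so neither sets these genes apart. The intervals cover counting error only and take regions as independent, which neighbours in 1 window need not be. In the 13 shared places the TBBz and DMSO centres lay 5 to 36 bp apart, with a median of 11 bp, against a median of 19 bp over all 16112 shared pairs of the study.

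The places in the list follow below for each gene. The deposited score is 1 for every region and ranks nothing, so the place in the deposited list is the only order at hand; it is taken to follow the strength of a region, which could not be tested without tag counts of single regions. A place has no size, and the Pol II lists differ in length, so a place with TBBz and one with DMSO are given side by side without reading a change from them.

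HSPA1A and HSPA1B encode the stress-inducible HSP70. The window's leading region stood at chr6:31795461-31795661 with TBBz (place 766) and at chr6:31795452-31795652 with DMSO (place 51, the first 0.234% of the DMSO list). A CK2α region at chr6:31795559-31795759 (place 932 of its list) overlapped both. A further shared region lay at chr6:31789471-31789671 with TBBz (place 6686) and chr6:31789480-31789680 with DMSO (place 10749), and another at chr6:31802653-31802853 (place 1002) and chr6:31802622-31802822 (place 209). The last lies 247 bp inside the end of the window, beyond which RefSeq lists SNHG32 with the small nucleolar RNAs SNORD48 and SNORD52 as neighbours of HSPA1B.

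In the first 11.5 kb of that window, 0 regions were called in any of the 3 lists. RefSeq orders HSPA1L, HSPA1A and HSPA1B along the chromosome, so the called regions sit on the HSPA1B side. The copies are near-identical, how the authors' alignment treated reads that match both is not given in the sources used here, and the window therefore does not tell whether HSPA1A or HSPA1B held Pol II.

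HSPA8 encodes the constitutive HSP70. Its shared region stood at chr11:122932690-122932890 with TBBz (place 5922) and chr11:122932708-122932908 with DMSO (place 359). A TBBz region with no DMSO overlap stood beside it, at chr11:122933308-122933508 (place 6747). The nearest CK2α centre was 20482 bp from that TBBz region and 21082 bp from the DMSO region, so HSPA8 had Pol II and no called CK2α nearby. RefSeq also places SNORD14C, SNORD14D and SNORD14E within HSPA8, whose Pol II signal cannot be separated from that of the host gene.

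HSP90AA1, the stress-inducible cytosolic HSP90, had the earliest TBBz region of the set. It stood at chr14:102553228-102553428 with TBBz (place 117) and chr14:102553254-102553454 with DMSO (place 178), and a CK2α region at chr14:102553079-102553279 (place 501) overlapped both. Far from it in the same window, a shared region stood at chr14:102606193-102606393 with TBBz (place 4471) and chr14:102606185-102606385 with DMSO (place 9593), with CK2α at chr14:102606432-102606632 (place 8821) beside it, 239 bp from the TBBz centre and 247 bp from the DMSO centre. RefSeq gives HSP90AA1 separate starts and WDR20 as its neighbour. Sides at the farther site are given below by the direction of HSP90AA1 alone, and to which gene its Pol II belongs was not tested. A DMSO region at chr14:102545358-102545558 (place 13705) had its nearest TBBz centre 7870 bp away.

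HSP90AB1, the constitutive cytosolic HSP90, had 4 TBBz and 2 DMSO regions. The leading region was at chr6:44214778-44214978 with TBBz (place 1132) and chr6:44214765-44214965 with DMSO (place 269). TBBz regions without DMSO overlap stood on either side of it, at chr6:44213886-44214086 (place 6022) and chr6:44215382-44215582 (place 9017). The 1 CK2α region, chr6:44215068-44215268 (place 820), fell between the leading region and the downstream TBBz region and overlapped neither. A shared region farther on, at chr6:44225089-44225289 with TBBz (place 3294) and chr6:44225084-44225284 with DMSO (place 6247), lies toward SLC35B2, the next gene in RefSeq.

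HSPH1, the HSP110 exchange factor of HSP70, had the latest leading region of the 7 windows in both Pol II lists, and of the 5 windows with CK2α in the CK2α list. Its leading region was chr13:31735929-31736129 with TBBz (place 11322) and chr13:31735893-31736093 with DMSO (place 8610), and it overlapped CK2α at chr13:31735795-31735995 (place 8777). A second shared region lay at chr13:31736524-31736724 with TBBz (place 13070) and chr13:31736535-31736735 with DMSO (place 13697). A TBBz region at chr13:31735110-31735310 (place 16656) had no DMSO overlap. A CK2α region at chr13:31716416-31716616, at place 13059 of 13382, was 18694 bp from the nearest TBBz centre and 19477 bp from the nearest DMSO centre.

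DNAJB1, the J-domain partner of inducible HSP70, was the 1 window in which every Pol II region was shared. The regions were chr19:14629075-14629275 with TBBz (place 2170) and chr19:14629082-14629282 with DMSO (place 287), and chr19:14640373-14640573 with TBBz (place 1556) and chr19:14640358-14640558 with DMSO (place 1231). The second site, on the side of TECR, the next gene in RefSeq, carried CK2α at nearly the same place, chr19:14640361-14640561 (place 5328), 12 bp from the TBBz centre and 3 bp from the DMSO centre. At the first site CK2α stood at chr19:14628806-14629006 (place 1459) without overlap, 269 bp from the TBBz centre and 276 bp from the DMSO centre.

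HSPD1 and HSPE1 run in opposite directions from neighbouring starts. Their leading region was chr2:198364427-198364627 with TBBz (place 1902) and chr2:198364435-198364635 with DMSO (place 2023). TBBz alone had a region at chr2:198365066-198365266 (place 4831). DMSO alone had one at chr2:198349619-198349819 (place 14102), with the nearest TBBz centre 14808 bp away. The nearest CK2α centre to the shared site was 16181 bp from the TBBz region and 16173 bp from the DMSO region.

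The TBBz regions that had no DMSO overlap are called flanking regions here, by position alone. There were 7 of them, in 6 of the 7 windows, and each stood 604 to 892 bp (median 720 bp) from a region that both treatments shared. All 7 thus had a shared TBBz region within 1 kb, which is 100% (59.0 to 100%), against 10.3% of the 8670 TBBz regions without DMSO overlap in the whole list. The distance of 1 kb was chosen after the data were seen; at 700 bp it was 3 of 7 (42.9%, 9.90 to 81.6%), against 4.86% of the whole list. Seen from the shared regions, 6 of 13 had such a TBBz-only neighbour within 1 kb, which is 46.2% (19.2 to 74.9%), against 5.57% of all shared TBBz regions and 6.41% of those in the first 50% of the list. At 1 kb these intervals lie above the share of the whole list, but this pattern was noticed in these same data, and without replicates no test of a difference between the treatments was made. RefSeq lists several starts for HSP90AB1, and HSPE1 starts beside HSPD1. Whether a flanking region stood at another annotated start was not tested, because starts were not carried over to hg19.

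In the direction of each gene, the flanking TBBz region lay upstream of the shared region in the HSPA1A and HSPA1B window (858 bp; both genes run the same way) and at HSPA8 (618 bp) and HSP90AA1 (720 bp, at the farther of its shared sites). At HSP90AB1 1 lay upstream (892 bp) and 1 downstream (604 bp), and at HSPH1 it lay downstream (819 bp). At HSPD1 and HSPE1 it lay 639 bp away, upstream for HSPD1 and downstream in the direction of HSPE1, which runs the other way. No side was common to all, and none of the 7 was farther than 879 bp from a DMSO centre. Accordingly, no TBBz region of these windows was without a DMSO centre within 2 kb: 0 of 20 (exact upper bound 16.8%), against 21.1% of the whole TBBz list.

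The DMSO list had no such flanks here. Its 2 regions without TBBz overlap, at HSP90AA1 and at HSPD1 and HSPE1, stood 7896 bp and 14816 bp from the nearest shared DMSO region, so 0 of 2 had one within 1 kb, against 9.09% of the unshared DMSO regions of the whole list. The same 2 of 15 regions (13.3%) had no TBBz centre within 2 kb, against 13.9% of the whole DMSO list. Of the 13 shared DMSO regions, 0 had a DMSO-only region within 1 kb (exact upper bound 24.7%), against 3.20% of all shared DMSO regions, a share too low to be told from 0 in so few regions. The TBBz library was the deeper one, with 22345614 tags, against 15466579 with DMSO, and it lost fewer candidates to the local comparison; the part of either in the flanks was not tested.

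**Figure D2:**
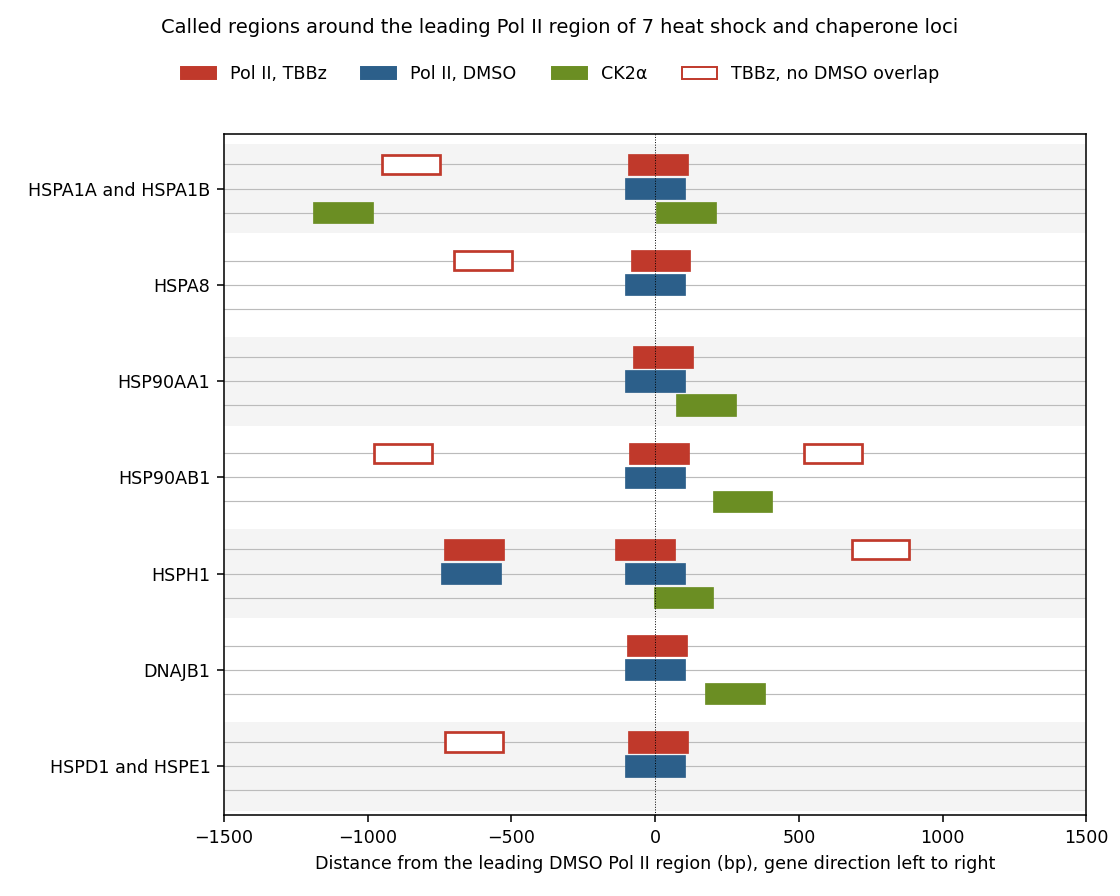
Called regions at each locus (rows) by distance in bp from the centre of the leading DMSO Pol II region (horizontal axis), turned so that the gene runs from left to right (HSPA1A and HSPA1B run the same way, and HSPD1 gives the direction for HSPD1 and HSPE1), in lanes for TBBz, DMSO and CK2α from top to bottom. Open boxes are TBBz regions without DMSO overlap; 6 of the 7 are in view, and that of HSP90AA1 lies by its farther shared site, outside the plotted range.

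To compare order on equal terms, the regions were ranked among the 16112 pairs that both Pol II lists share, so that both orders have the same length. Among the 13 chaperone pairs, 3 stood 10 or more percentage points later with TBBz than with DMSO (23.1%), against 20.3% of all pairs, and 3 stood 10 or more points earlier (23.1%), against 21.7% of all pairs. As a set the pairs were therefore displaced about as often as any. The leading pair of HSPA8 was the farthest displaced toward the end, at 32.2% of the pairs with TBBz and 2.10% with DMSO. A displacement at least as large was found in 1.97% of all pairs and in 5.96% of the 1611 pairs in the first 10% of the DMSO order. HSPA8 was picked as the largest of the 13 pairs, so these shares do not measure how unusual it is. DNAJB1's leading DMSO pair stood at 12.2% with TBBz and 1.69% with DMSO, and HSPH1's at 58.8% with TBBz and 47.6% with DMSO.

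Of the 7 leading pairs, 5 stood later with TBBz and 2 earlier. Beside HSPA8, DNAJB1 and HSPH1, the leading pair of the HSPA1A and HSPA1B window stood at 4.38% with TBBz and 0.310% with DMSO, and that of HSP90AB1 at 6.43% with TBBz and 1.58% with DMSO. The leading pair of HSP90AA1 stood at 0.701% with TBBz and 1.05% with DMSO, and that of HSPD1 and HSPE1 at 10.7% with TBBz and 11.6% with DMSO. Leading pairs were picked as the earliest in the DMSO order, so most of them had little room to stand earlier with TBBz. The 3 pairs that stood 10 or more points earlier with TBBz were the farther HSP90AA1 site (24.6% with TBBz, 52.7% with DMSO), the site of the HSPA1A and HSPA1B window with the lowest coordinate (36.1% with TBBz, 58.9% with DMSO) and the HSP90AB1 site on the side of SLC35B2 (18.3% with TBBz, 34.8% with DMSO). Which of these displacements exceed the variation between repeat libraries is not known.

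**Figure D3:**
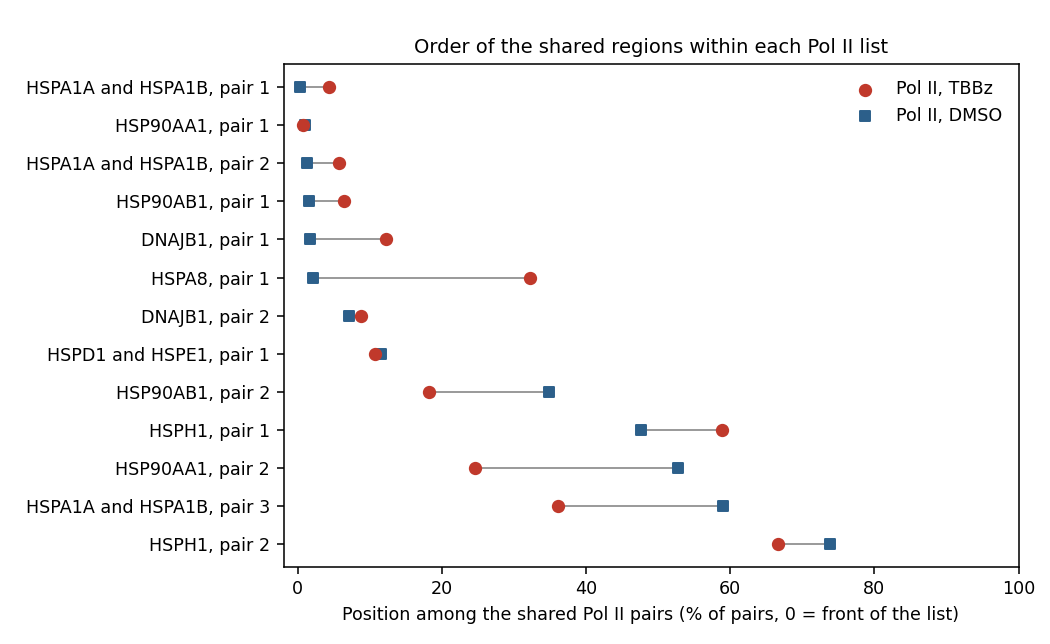
Position of the 13 shared Pol II pairs of the chaperone windows among all 16112 shared pairs (horizontal axis, percent, with 0 at the front of the list), for TBBz (circles) and DMSO (squares), 1 library each. Pairs are numbered within a window by their DMSO order; that of HSPA8 lies at 32.2% with TBBz and 2.10% with DMSO.

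CK2α lay near Pol II at the chaperone genes about as often as elsewhere. Of the 9 CK2α regions, 4 overlapped a TBBz Pol II region and 4 a DMSO Pol II region, each 44.4% (13.7 to 78.8%), against 36.0% (TBBz) and 36.8% (DMSO) of the whole CK2α list. Within 1 kb of a DMSO Pol II centre there were 7 of 9, against 78.3% of the list, and within 1 kb of a TBBz centre 8 of 9, against 77.0%. The difference is the CK2α region at chr6:31794366-31794566 (place 1049), which stood 237 bp from the TBBz-only flank in the HSPA1A and HSPA1B window and 1086 bp from the nearest DMSO centre. Of the Pol II regions, 12 of 20 with TBBz (60.0%) and 8 of 15 with DMSO (53.3%) had a CK2α centre within 1 kb, against 42.2% and 47.5% of the whole lists; both intervals include the whole list's share. No control library was named in the peak calling, and background shared by the libraries at these sites cannot be told apart from CK2α binding.

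**Figure D4:**
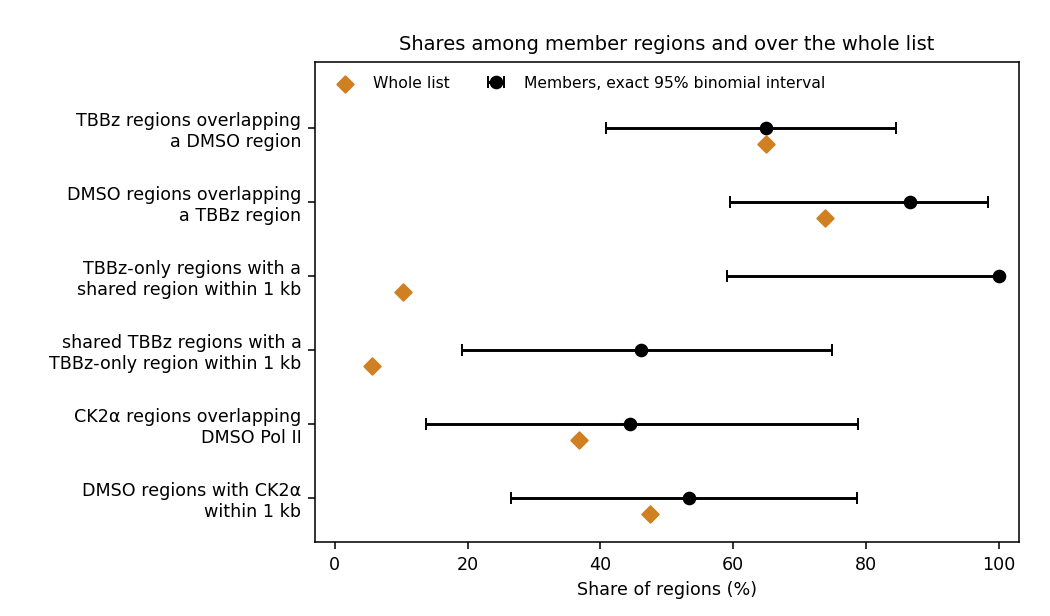
Shares in percent (horizontal axis) among the regions of the chaperone windows (black points, with exact 95% binomial intervals) and over the whole list (diamonds), for 6 overlap and distance rules. The shares for TBBz-only flanks, 100% and 46.2%, have intervals that exclude the whole list's 10.3% and 5.57%, while the other 4 intervals include it. The flank pattern and its 1 kb distance were chosen after these data were seen. Both flank shares count the same flanks from either side, and no test rests on their intervals.

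The nearest CK2α centre within 1 kb of the leading DMSO region stood on its downstream side in each of the 5 windows that had one. It lay 98 bp downstream at HSPH1, 107 bp in the HSPA1A and HSPA1B window, 175 bp at HSP90AA1, 276 bp at DNAJB1 and 303 bp at HSP90AB1, by the direction of the genes in RefSeq. Some other CK2α regions of these windows lay on the upstream side. At the farther HSP90AA1 site CK2α stood upstream, 239 bp from the TBBz centre and 247 bp from the DMSO centre. The CK2α region at chr6:31794366-31794566 stood upstream of the leading DMSO region of its window, 1086 bp away and so just beyond 1 kb, at place 1049, close to place 932 of the downstream one. At the DNAJB1 site on the side of TECR, CK2α lay 12 bp downstream of the TBBz centre and 3 bp upstream of the DMSO centre, which gives no side. That site is the leading TBBz region of its window; in the other 4 windows the offset from the leading TBBz region was also downstream, by 98 to 290 bp. Among the other chaperone genes described below, the nearest CK2α centre was downstream in 6 and upstream in 5 of 11 genes, over a range of -895 to 576 bp from the DMSO region. With 5 loci against 11 and a pattern chosen after its values were seen, no test was made. The CK2α and Pol II libraries differ in antibody and in the labelled treatment, and the offsets are of the order of the 150 bp fragment length set in the caller.

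**Figure D5:**
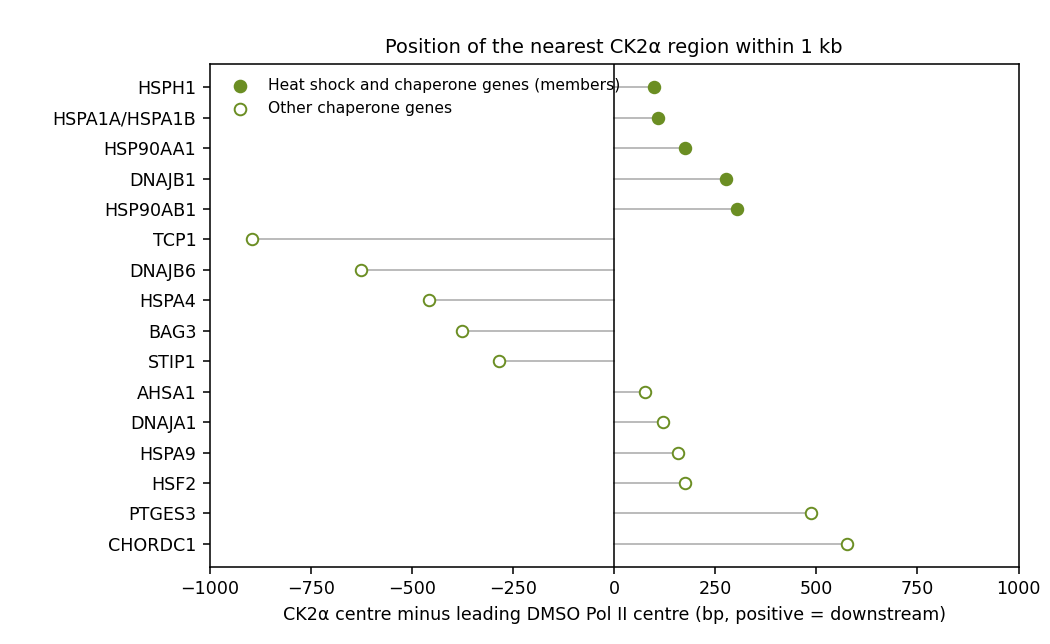
Distance in bp from the leading DMSO Pol II centre to the nearest CK2α centre within 1 kb (horizontal axis, positive in the direction of transcription), 1 gene per row, for the heat shock and chaperone genes (filled) and other chaperone genes (open). All 5 members lie between 98 and 303 bp downstream, and 5 of the 11 others lie upstream; CK2α regions at further sites of the same windows are not drawn.

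Other chaperone genes were described beside these. A list of 24 heat shock regulators, chaperones, co-chaperones and ubiquitin genes was set up with hg19 windows from general knowledge of gene positions, and 19 windows had a width that matched the gene's span in RefSeq and were kept. They held 38 TBBz, 39 DMSO and 21 CK2α regions. Pol II was called in 18 of the 19 in either treatment; the exception was SERPINH1, a collagen chaperone, with no region in any list. TBBz had more regions than DMSO in 3 genes, as many in 12 and fewer in 4.

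More TBBz regions were found at HSPA14, an HSP70 relative (3 with TBBz, 1 with DMSO), at STIP1, which links HSP70 to HSP90 (3 and 2), and at TRAP1, the mitochondrial HSP90 (3 and 2). Fewer were found at CDC37, which loads kinases onto HSP90 (2 with TBBz, 4 with DMSO), at CCT2, a chaperonin subunit (1 and 2), at PTGES3, the HSP90 co-chaperone p23 (1 and 2), and at TCP1, also a chaperonin subunit (2 and 3). Of their TBBz regions 68.4% overlapped a DMSO region (51.3 to 82.5%), against 65.0% of the whole TBBz list. Of their DMSO regions 66.7% overlapped a TBBz region (49.8 to 80.9%), against 73.8% of the whole DMSO list. Of their 12 TBBz regions without DMSO overlap, 1 had a shared TBBz region within 1 kb, at CDC37. This is 8.33% (0.211 to 38.5%), against 10.3% of the whole list. Of their 13 DMSO regions without TBBz overlap, 1 had a shared DMSO region within 1 kb, also at CDC37. This is 7.69% (0.195 to 36.0%), against 9.09% of the whole list. Both intervals include the whole list's share, but they are too wide to show that flanks were as common here as elsewhere.

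CK2α was called in 14 of the 19 genes, a share that was not computed over all genes. Of its 21 regions there, 11 overlapped DMSO Pol II, in 8 genes. This is 52.4% (29.8 to 74.3%), against 36.8% of the whole CK2α list, which the interval includes. Of these 8 genes, those with the earliest CK2α regions were DNAJA1, a J-domain partner of HSP70 (place 1422 of 13382), HSPA4, of the HSP110 group (place 1596), and HSPA9, the mitochondrial HSP70 (place 1597). Leading regions of these genes stood at a median of 11.8% of the TBBz list and 16.5% of the DMSO list. In the chaperone windows described first, the leading region was in the first 10% of the TBBz list in 5 of 7 and of the DMSO list in 6 of 7, against 8 and 5 of the 19 other genes. A leading region is the earliest of its window, so windows with several regions reach the first 10% more easily. The share over all genes was not computed. Counted over all regions of the chaperone windows, 7 of 20 with TBBz and 8 of 15 with DMSO stood in the first 10%.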

How the data were processed

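The submitters' processing notes name Bowtie, HOMER and the build hg19, without versions. HOMER was run by the authors on each library alone, per the file headers: factor style, regions of 200 bp centred on the pile-up and at least 500 bp apart, fragments taken as 150 bp, a false discovery rate of 0.001 and thresholds of 13 (TBBz), 11 (DMSO) and 12 (CK2α) tags; the command names no control library. The deposited score is 1 in every row and was not used. Starts, counted from 0 in the lists, were raised by 1.

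Overlap meant at least 1 bp shared, and distances run between centres. Intervals are exact binomial (Clopper-Pearson) at 95%. With 1 library per group no test was made. The overlap code was tested on simulated regions. RefSeq tables of GRCh38.p14 gave names, strands, gene spans, neighbours and promoters, and no coordinates of regions. Of the 24 other chaperone windows, 5 were left out because their width, less margins, differed by over 20% from the gene's RefSeq span. FKBP4 was not placed by direction. A planned marker of the cells is not reported here, and the HBB window, which failed the same span check, was not used. The software was Biopython 1.88, Matplotlib 3.10.9, SciPy 1.17.1, NumPy 2.4.6, pandas 2.3.3 and Python 3.11.15.

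The genes, windows and lists were chosen with earlier results of these data known. The rule for names took all 9 genes with every region of their windows. Of the other genes it took those with no region and the 3 with the largest difference in region number each way. TCP1, tied with CCT2 and PTGES3 there, is named in addition. It also took the 3 genes with the earliest CK2α region among those with CK2α on DMSO Pol II. PTGES3, with CK2α at place 1060 on TBBz Pol II only, was not counted there. The rankings among shared pairs, the flanking regions and the direction of CK2α were added after the data were seen.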

Additional observations from a re-analysis of the deposited data

How the results depend on the processing

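Alternatives were the first 50% of each list, Pol II lists of equal length, windows widened by 5 kb or narrowed by 3 kb, an overlap of 50% of the shorter region, centres within 500 bp, 1 kb or 2 kb, and leaving out HSPA1A and HSPA1B. Of 57 recomputed values, 48 stayed within the counting interval of the value reported or, for region numbers, within 1.5 times of it. Staying is a weak check, since the intervals are wide (13.7 to 78.8% for CK2α on Pol II). Under the stricter overlap rule, 2 of 9 CK2α regions (22.2%) lay on either Pol II list, against 4 of 9, which counted as staying. So did 6 CK2α regions in the first 50% of the list, against 9. Equal Pol II lists left the DMSO and CK2α lists uncut and cut the TBBz list to 21819 regions. Every TBBz region of these windows stood at place 16656 or earlier, so no value could move there, and all counted as staying. With centres within 1 kb or 2 kb, 100% of the TBBz regions had a DMSO partner. CK2α on TBBz Pol II was 88.9% with centres within 500 bp, 1 kb or 2 kb, and CK2α on DMSO Pol II was 88.9% at 2 kb; a wider rule can only add partners. In the first 50% of the lists 100% of the DMSO regions were shared, and widened windows held 14 CK2α regions, against 9. With a distance of 700 bp in place of 1 kb, 42.9% of the TBBz-only regions stood beside a shared one. The 1 kb and 700 bp distances were chosen after the data were seen. No paired analysis was possible because there is a single library for each antibody and treatment. The limit set by depth was not tested, since the lists hold no tag counts of single regions.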
